A study of Homo sapiens with 48 samples.

Results

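The fibrillar collagen genes examined here are COL1A1, COL1A2, COL3A1, COL5A1, COL5A2, COL5A3 and COL11A1, 7 of the 29744 genes in the expression tables. They were chosen by name, as the genes for the chains of collagens I, III and V and the first chain of collagen XI. No measured value set the rule, but earlier results of these data were known when the choice was made. They were followed by bulk RNA-seq in 48 libraries of immortalized human skin fibroblasts (CRL-4001) that carry a mNeonGreen reporter of IL-11, in 16 conditions of 3 libraries each. All cells received TGFβ and IL-1β, each at 10 ng/ml, for 0, 6, 12 or 24 h, where 0 h is the sample without cytokines. In the CRISPRko arm the cells carried Cas9, which cuts DNA at the site of its guide RNA, with either a non-targeting guide (H47_Ctrl) or a guide to GLIS3 (H47_KO), a zinc finger transcription factor. In the CRISPRa arm they carried dCas9-VP64, a Cas9 that does not cut and is joined to a transcription activator. Here too the guide was either non-targeting or directed to GLIS3, and the cells were labelled VP64_Ctrl or VP64_A. The reporter line was derived from single sorted cells, whereas the edited cells were selected with drugs as mixed populations, so H47_KO was not a knockout clone. The labels conflict in the CRISPRa arm: the title and the genotype entry make VP64_A the wild-type control and VP64_Ctrl the activated group, while the description, whose names head the columns of the tables, says the reverse. The descriptions are followed here. GLIS3 RNA was higher in every VP64_A library than in any VP64_Ctrl library, as the descriptions imply, with values given below. By the titles every direction given between these groups would be read the other way round. The cell line entry also reads Cas9 positive and knocked out for GLIS3 in all 48 samples, controls and CRISPRa included, and was not used. The study's reporting summary describes its in vitro work in general as independent biological replicates, but the labels of these libraries do not say that the 3 of a condition came from separate cultures, so the p-values measure the spread between these libraries, which may be technical.

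Fibrillar collagens are made as long procollagen chains that wind into triple helices in the endoplasmic reticulum, lose their end propeptides outside the cell, and assemble into fibrils that lysyl oxidases crosslink. Type I collagen, from COL1A1 and COL1A2 chains, is the main fibril of skin, and type III collagen, from COL3A1 alone, mixes with it. Type V collagen, from COL5A1 and COL5A2 with COL5A3 in some tissues, starts fibrils and limits their width, and faults in COL5A1 or COL5A2 cause classical Ehlers-Danlos syndrome. COL11A1 is best known as a chain of cartilage collagen XI and is also made by activated fibroblasts.

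The genes lie on 6 chromosomes of GRCh38 (GENCODE v44): COL1A1 at chr17:50184101-50201632 on the minus strand, COL1A2 at chr7:94394895-94431227 on the plus strand, COL3A1 at chr2:188974373-189012746 on the plus strand, COL5A1 at chr9:134641803-134844843 on the plus strand, COL5A2 at chr2:189031898-189225312 on the minus strand, COL5A3 at chr19:9959561-10010504 on the minus strand and COL11A1 at chr1:102876467-103108872 on the minus strand. COL3A1 and COL5A2 are neighbours on chromosome 2. All but COL11A1 overlap at least 1 annotated gene on the opposite strand, and the library kit does not mark strand, so reads of such partners cannot be told apart from those of the collagens. RefSeq promoter windows on GRCh38.p14 were matched for 3 of the 7 genes, COL5A1, COL5A3 and COL11A1. The 250 bases before the RefSeq start are shown for COL5A1 and COL11A1, since these were the genes called between VP64_A and VP64_Ctrl at all 4 times. They run 5′ to 3′ along each gene's own strand, from chr9:134641553-134641802 on the plus strand and chr1:103108523-103108772 on the minus strand, and capitals mark letters that matched a searched motif.
COL5A1: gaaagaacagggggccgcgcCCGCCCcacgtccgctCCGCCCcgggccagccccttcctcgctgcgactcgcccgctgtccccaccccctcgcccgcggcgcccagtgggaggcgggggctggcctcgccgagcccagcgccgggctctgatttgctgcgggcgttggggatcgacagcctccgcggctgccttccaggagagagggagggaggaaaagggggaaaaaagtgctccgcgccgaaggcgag
COL11A1: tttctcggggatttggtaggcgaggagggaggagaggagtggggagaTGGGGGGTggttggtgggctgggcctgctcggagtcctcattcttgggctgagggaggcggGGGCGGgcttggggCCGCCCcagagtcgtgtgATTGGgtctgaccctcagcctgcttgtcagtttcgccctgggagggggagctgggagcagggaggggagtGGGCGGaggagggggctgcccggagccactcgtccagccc

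The motifs were searched on both strands of the full 300-base window, which adds the 50 bases after the start: CCAAT (the NF-Y box), GGGCGG (SP1), CAGACA (SMAD), TGANTCA (AP-1), CATTCC (TEAD) and TGGGGGGT (a GLIS element). The COL5A1 window held GGGCGG at 2 places and no other searched motif. In the COL11A1 window GGGCGG was found at 3 places, CCAAT at 1 and TGGGGGGT at 1, at position -203 from the start. The COL5A3 window held 1 CCAAT and 1 GGGCGG. Among 35116 promoter windows of the same length, 45% held GGGCGG, 34.6% CCAAT, 16.9% CAGACA, 14% CATTCC, 7.71% TGANTCA and 1.47% TGGGGGGT. A match describes letters only and was not tested as a binding site.

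Estimated counts per library ranged from 2321990 to 10661000, and the 7 genes took 0.553% to 2.48% of them. All 8 fibroblast markers were detected in every library, among them VIM, THY1 and PDGFRB, whereas EPCAM, KDR and CD3E, which define epithelial, endothelial and T cells, were listed at 0 in all 48. Other markers in those lists were detected: CD68 at 13.6 to 69.6 TPM and KRT8 at 5.61 to 30.2 TPM in every library, KRT14 at up to 78.9 TPM, CD14 at up to 2.35 TPM and PECAM1 at up to 0.615 TPM. Of 4 markers of chondrocytes, which also use COL11A1, COL2A1 and ACAN were at 0 in 47 libraries, MATN3 in 25 and COMP in 22, with COMP reaching 4.01 TPM. KRT18, a simple-epithelial keratin, ran from 355 to 8226 TPM, and with it the summed epithelial list reached 898 to 8326 TPM in VP64_A against 504 to 2764 in VP64_Ctrl, while the smooth muscle list, mostly ACTA2, summed to 31.4 to 146 TPM in the CRISPRa arm and 502 to 2481 in the CRISPRko arm. The part of these genes' levels in the results was not tested. Of the cytokine response genes tested, 5 of 5 for IL-1β and 4 of 5 for TGFβ were higher at 6 h and at 24 h than at 0 h in each of the 4 groups of cells. GLIS3 ran from 1.45 to 6.47 normalized CPM (counts scaled to the library's effective size) in H47_Ctrl and from 0.144 to 1.63 in H47_KO. In the CRISPRa arm it ran from 1.91 to 6.31 CPM in VP64_Ctrl and from 16.6 to 36.7 in VP64_A, without overlap. Averaged over times its log2 fold change was -1.68 (SE 0.25, adjusted p = 5.71e-05) in H47_KO and 3.05 (SE 0.12, adjusted p = 5.22e-19) in VP64_A, each against its control. At single times edgeR called GLIS3 in H47_KO at 0 h (adjusted p = 0.0355). It did not do so at 6 h (adjusted p = 0.0925), 12 h (0.507) or 24 h (0.383). GLIS3 counts were low, at 1 to 21 per library in H47_KO and 6 to 45 in H47_Ctrl.

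Levels were compared between genes in TPM, which corrects for transcript length. COL1A2 was highest with a median of 2776 TPM over the 48 libraries (range 1123 to 4845), followed by COL1A1 with 845 TPM (223 to 1839). COL3A1 had a median of 134 TPM (40.5 to 402) and COL5A2 79.8 TPM (26.9 to 126). COL5A1 was at 23.7 TPM (7.45 to 47.4), COL11A1 at 7.46 TPM (1.18 to 35) and COL5A3 at 0.0274 TPM (0 to 0.463). COL1A2 exceeded COL1A1, COL1A1 exceeded COL3A1, and COL5A2 exceeded COL5A1 in 48 of 48 libraries. The neighbours that changed places were COL3A1 and COL5A2, with COL3A1 higher in 39 libraries, and COL5A1 and COL11A1, with COL5A1 higher in 44.

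**Figure D1:**
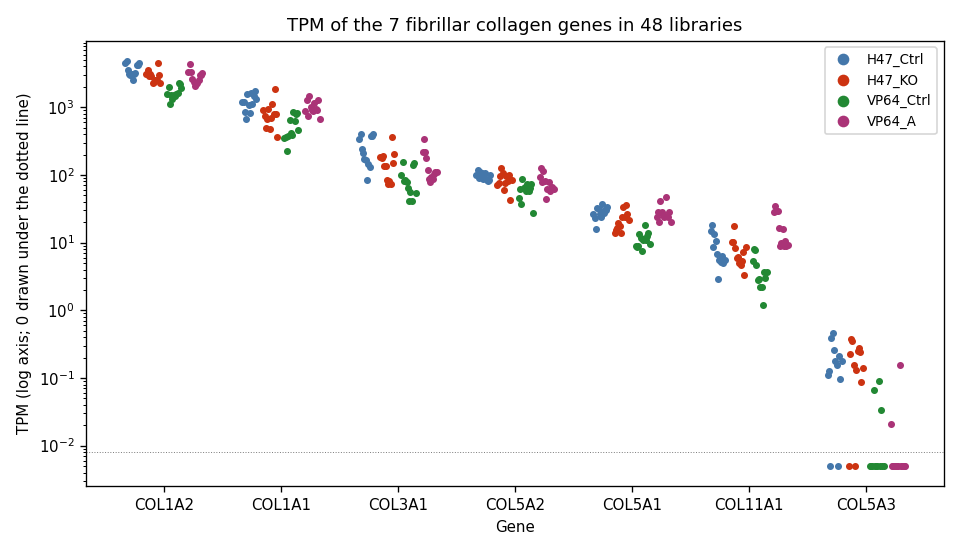
TPM of each of the 7 fibrillar collagen genes (x axis) on a log axis, 1 point per library, coloured by group of cells and ordered by time within a group. COL1A2 spans 1123 to 4845 TPM, and the 23 libraries with COL5A3 at 0 are drawn under the dotted line.

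COL5A3, the third chain gene of collagen V, was close to undetected. It had at most 11 estimated counts in any library and none in 23 of them, which allows up to 0.301 to 1.29 CPM depending on depth, taking 3 counts as the limit for a count of 0. Of the 24 CRISPRa libraries 19 were at 0, against 4 of 24 in the CRISPRko arm. Its highest library was H47_Ctrl replicate 2 at 6 h, where the 3 values were 1.15, 2.19 and 1.23 CPM, followed by H47_KO replicate 1 at 6 h with 1.71 CPM. It did not pass the filter on low counts in either arm, so 6 of the 7 genes were tested.

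The largest differences among the 6 tested genes were between VP64_A and VP64_Ctrl. Without cytokines all 6 were called higher in VP64_A, from 2.47-fold for COL5A2 to 5.59-fold for COL11A1, beside 9.41% of all genes tested. The 3 libraries of each group did not overlap for any of the 6. Lack of overlap is given here and below as a description, since its share over all genes was not computed. With cytokines COL11A1 and COL5A1 were the genes called at each single time, beside 3.76% of all genes at 6 h, 4.31% at 12 h and 4.13% at 24 h. Averaged over the 4 times all 6 were called higher, beside 18.4% of all genes. The call rested on edgeR's quasi-likelihood test, with p-values adjusted by Benjamini-Hochberg over every gene tested in the arm and a threshold of 0.05. In median TPM over its 12 libraries, VP64_Ctrl was below H47_Ctrl, the other control, for each of the 6 genes. VP64_A was above H47_Ctrl for COL11A1 alone, at 13.3 against 6.6 TPM, with 3.32 in VP64_Ctrl. COL1A1 was at 1191 TPM in H47_Ctrl, 922 in VP64_A and 435 in VP64_Ctrl. COL5A1 was at 28.5, 25.4 and 10.96 TPM in the same order. The difference between the arms was not tested.

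**Figure D2:**
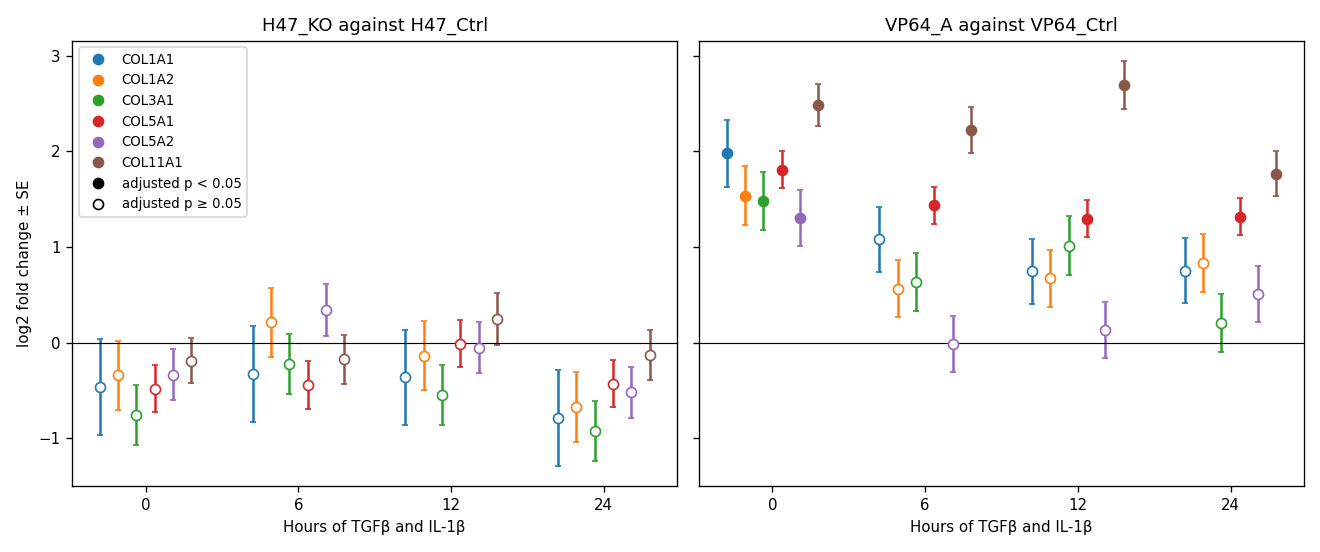
log2 fold change ± SE (y axis) of 6 fibrillar collagen genes at 0, 6, 12 and 24 h (x axis, not to scale) for H47_KO against H47_Ctrl (left) and VP64_A against VP64_Ctrl (right), with filled points at adjusted p under 0.05. All 6 points are filled at 0 h on the right, COL5A1 and COL11A1 stay filled at later times, and no point is filled on the left.

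COL11A1, the collagen XI chain, differed most. At 0 h its normalized CPM was 22.4, 35.5 and 20.4 in VP64_Ctrl and 135, 162 and 145 in VP64_A. At 6 h it was 24.1, 18.4 and 21.4 against 136, 108 and 56.1, and at 12 h 12.2, 10.6 and 7.96 against 64.9, 73.9 and 62.6. At 24 h the values were 19.4, 14.3 and 16.4 against 66.8, 51.5 and 54.3. The lowest of the 12 VP64_A libraries, at 51.5, was above the highest of the 12 VP64_Ctrl libraries, at 35.5. The log2 fold change was 2.48 at 0 h (SE 0.22, adjusted p = 1.09e-09), 2.22 at 6 h (SE 0.24, adjusted p = 7.98e-08), 2.69 at 12 h (SE 0.25, adjusted p = 4.72e-09) and 1.77 at 24 h (SE 0.24, adjusted p = 4.48e-06).

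COL5A1, which encodes the main chain of collagen V, was the other gene called at every time. At 0 h it had 42.8, 45.2 and 28.3 CPM in VP64_Ctrl and 136, 155 and 119 in VP64_A. At 24 h it had 75.7, 79.7 and 50.2 against 176, 193 and 141. Over all times the VP64_Ctrl libraries lay between 28.3 and 102 CPM and the VP64_A libraries between 119 and 256, again without overlap. The log2 fold change was 1.81 at 0 h (SE 0.19, adjusted p = 4.76e-08), 1.44 at 6 h (SE 0.19, adjusted p = 5.85e-06), 1.30 at 12 h (SE 0.19, adjusted p = 2.23e-05) and 1.32 at 24 h (SE 0.19, adjusted p = 1.89e-05). Its partner COL5A2 was called at 0 h but not at the single later times, with 180.5, 267 and 98.2 CPM in VP64_Ctrl and 425, 556 and 367 in VP64_A (log2 1.30, SE 0.30, adjusted p = 0.00396). At 6 h COL5A2 had 432, 395 and 462 CPM in VP64_Ctrl and 509, 500.3 and 262 in VP64_A, which overlap.

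The chains of type I collagen were higher in VP64_A without cytokines, while some of their calls at single later times depended on the fit. COL1A1 had 1136, 1255 and 445 CPM in VP64_Ctrl at 0 h and 3417, 4766 and 2986 in VP64_A (log2 1.98, SE 0.35, adjusted p = 2.29e-04). At 6 h it had 1554, 3371 and 2403 CPM against 5549, 5290.3 and 4650.1, which did not overlap but missed the threshold (log2 1.08, SE 0.34, adjusted p = 0.0776). It was called in 7 of 10 settings tried, with adjusted p from 9.17e-04 to 0.0981, and also without VP64_Ctrl replicate 2 at 6 h (log2 1.39, adjusted p = 0.0468). At 12 h COL1A1 was called in 0 of 10 settings (log2 0.75, adjusted p = 0.283 with edgeR). COL1A2 had 4769.6, 6494 and 2252 CPM in VP64_Ctrl at 0 h and 11943, 15209.5 and 12100.3 in VP64_A (log2 1.54, SE 0.31, adjusted p = 0.00104). At 24 h it had 8669, 7952 and 6257 CPM against 13859.5, 12794 and 13988, again without overlap (log2 0.83, SE 0.30, adjusted p = 0.141). COL1A2 at 24 h was called in 5 of 10 settings, among them DESeq2 (adjusted p = 0.0250), and at 6 h (log2 0.56, SE 0.30, adjusted p = 0.430) in 4 of 10.

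COL3A1, the type III chain, had 308, 514 and 165 CPM in VP64_Ctrl at 0 h and 792, 1169.6 and 796 in VP64_A (log2 1.48, SE 0.31, adjusted p = 0.00164). At 12 h it had 177, 194 and 211 CPM against 395, 327 and 454, without overlap, and missed the threshold (log2 1.01, SE 0.31, adjusted p = 0.0559), though 5 of 10 settings called it. By 24 h the groups overlapped, with 543, 539 and 178 CPM in VP64_Ctrl and 477, 494 and 482 in VP64_A. Averaged over times, the log2 fold change was 2.29 for COL11A1, 1.46 for COL5A1, 1.14 for COL1A1, 0.90 for COL1A2, 0.83 for COL3A1 and 0.48 for COL5A2, with SE between 0.10 and 0.17 and adjusted p from 3.76e-16 to 0.0193. With limma on TPM the averaged COL5A2 call was lost (adjusted p = 0.104 with a pseudocount of 1), and with only the compared libraries in the fit COL1A2 at 0 h missed the threshold (adjusted p = 0.0661).

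VP64_Ctrl replicate 3 at 0 h stood apart. Its 50 most abundant genes took 23.1% of the counts, the lowest share of the 48 libraries, whose median was 39.9%, and the 7 collagens took 0.553%, also the lowest. The other 2 libraries of that condition had 32.6% and 34.9%, with 0.848% and 1.04% for the collagens. Without replicate 3 there were 491 genes called between VP64_A and VP64_Ctrl at 0 h instead of 1033, while all 6 collagens were still called, with log2 fold changes from 1.00 for COL5A2 (adjusted p = 0.0470) to 2.34 for COL11A1 (adjusted p = 5.95e-08). COL11A1, COL5A1 and the other 4 were also still called averaged over times. In the test of whether the group difference at 6 or 24 h differed from that at 0 h, 0 of the 12 gene and time combinations in the CRISPRa arm were called by edgeR with the filter on low counts, DESeq2 or limma, beside 0.0911% of all genes at 6 h and 0.209% at 24 h. All 12 estimates were below 0, from -1.32 for COL5A2 at 6 h to -0.26 for COL11A1 at 6 h, and 5 had an unadjusted p under 0.05. Of all 10980 genes tested, 1035 at 6 h and 781 at 24 h had one. The 12 estimates share the 0 h libraries, VP64_Ctrl replicate 3 among them, and are not independent. With no filter on low counts edgeR called COL5A2 at 6 h (log2 -1.32, adjusted p = 0.00196) and COL3A1 at 24 h (log2 -1.27, adjusted p = 0.00566). Without VP64_Ctrl replicate 3 at 24 h, COL3A1 at 24 h was also called (log2 -1.62, adjusted p = 0.0448). Without VP64_Ctrl replicate 3 at 0 h, the library that stood apart, edgeR with the filter called neither. COL3A1 at 24 h was then -0.96 (adjusted p = 0.730) and COL5A2 at 6 h -1.03 (adjusted p = 0.674).

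In the CRISPRko arm no fibrillar collagen was called between H47_KO and H47_Ctrl at any single time by edgeR with the filter on low counts, DESeq2 or limma, where 0.301% of all genes were called at 0 h, 0.319% at 6 h, 0.0821% at 12 h and 0.21% at 24 h. Of the 24 gene and time combinations 21 had a lower mean in H47_KO, from a log2 difference of -0.92 to 0.34, and 2 had an unadjusted p under 0.05. Of all 10962 genes tested, 842 at 12 h to 1253 at 0 h had an unadjusted p under 0.05. The median log2 difference of all genes was -0.034 at 6 h to 0.021 at 0 h. The collagens were measured in the same libraries, so the 24 combinations are not independent. GLIS3 itself was called by edgeR at 0 h but not at 6, 12 or 24 h, so a lack of calls does not show a lack of difference. Averaged over the 4 times, 3.07% of all genes were called and COL3A1 was the 1 collagen among them, with a log2 fold change of -0.61 (SE 0.16, adjusted p = 0.0226). The other 5 ranged from -0.48 for COL1A1 (adjusted p = 0.339) to -0.06 for COL11A1 (adjusted p = 0.869).

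COL3A1 at 0 h had 1094, 1365 and 837 CPM in H47_Ctrl and 784, 697 and 475 in H47_KO, which did not overlap (log2 -0.75, SE 0.31, adjusted p = 0.325). At 24 h it had 1487, 1613 and 1439 CPM in H47_Ctrl and 1425, 463 and 501 in H47_KO (log2 -0.92, SE 0.31, adjusted p = 0.310), and edgeR with no filter on low counts called it (log2 -0.92, adjusted p = 0.0260). The H47_KO libraries at 24 h spread widely: COL1A1 had 7676, 2647 and 889.7 CPM in them, and the 50 most abundant genes took 44.4%, 39.04% and 31.4% of their counts. The result depended on which of the 3 was left out. Without replicate 1 COL3A1 at 24 h was called with a log2 difference of -1.65 (adjusted p = 0.00544) and so was COL5A2 (log2 -1.02, adjusted p = 0.0463), whereas COL3A1 was at -0.65 (adjusted p = 0.518) without replicate 2 and -0.67 (adjusted p = 0.771) without replicate 3. Averaged over times, COL1A1 (log2 -0.76, adjusted p = 0.0444) and COL5A1 (log2 -0.45, adjusted p = 0.0140) were called beside COL3A1 without replicate 1, while COL1A1 was at -0.37 (adjusted p = 0.407) without replicate 3. Without replicate 1, across all genes 104 were called at 24 h instead of 23. The averaged COL3A1 call was lost without H47_Ctrl replicate 2 at 0 h (adjusted p = 0.0532) or H47_KO replicate 3 at 6 h (adjusted p = 0.0516). COL5A2 at 0 h had 415, 521 and 397 CPM in H47_Ctrl and 381, 376 and 301 in H47_KO, separate but close (log2 -0.33, SE 0.27, adjusted p = 0.687). In 12 tests of the 6 collagens, edgeR, DESeq2 and limma called no change with time as different between H47_KO and H47_Ctrl. Of all genes 0.00912% were called for 6 h and 0% for 24 h. With edgeR 0 of the 12 had an unadjusted p under 0.05, beside 869 of 10962 genes for 6 h and 616 for 24 h.

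The second question was how the cytokines moved these genes with time. By 24 h COL11A1 had fallen in 3 of the 4 groups of cells and COL5A1 had risen in 3, while COL1A1, COL3A1 and COL5A2 were called in some comparisons. At 24 h against 0 h the share of all genes called was 10.3% in H47_Ctrl, 15.8% in H47_KO, 16% in VP64_Ctrl and 13.6% in VP64_A. At 6 h against 0 h it was 15.9%, 23.9%, 28.8% and 17.4%, and at 24 h against 6 h it was 14.6%, 24.2%, 18.4% and 12.5%, in the same order.

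**Figure D3:**
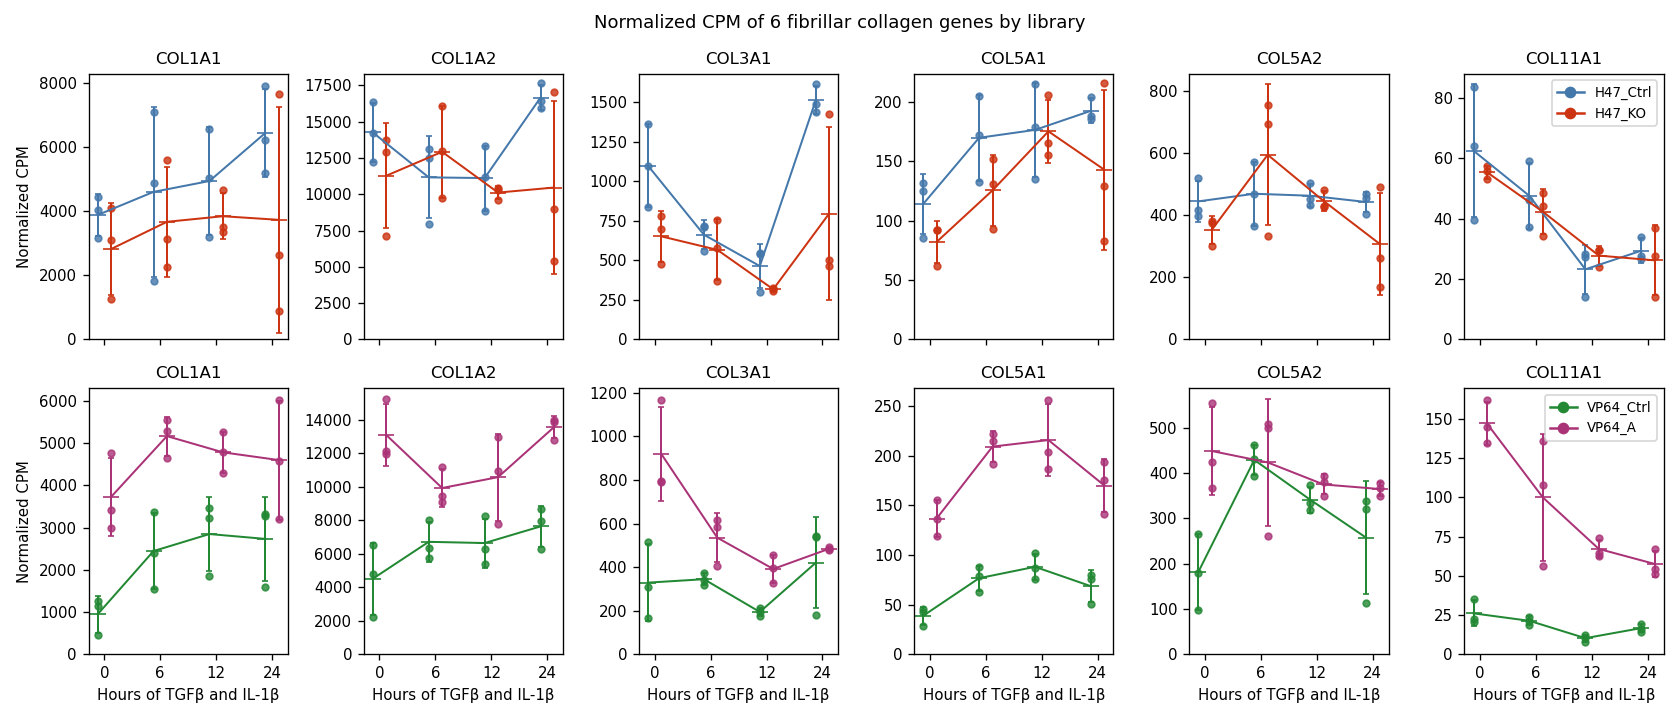
Normalized CPM (y axis, linear from 0) of 6 fibrillar collagen genes at 0, 6, 12 and 24 h (x axis, not to scale), CRISPRko arm above and CRISPRa arm below, each arm normalized on its own; points are libraries, and lines join means with bars of 1 SD (n = 3). COL11A1 means are lower at 24 h than at 0 h in each group of cells (log2 -0.64 in VP64_Ctrl was not called), the VP64_A and VP64_Ctrl points of COL11A1 and COL5A1 do not overlap at any time, and COL3A1 is lowest at 12 h in all 4 groups.

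COL11A1 in H47_Ctrl had 64.3, 83.7 and 39.7 CPM at 0 h, 13.98, 27.5 and 28.3 at 12 h and 34.1, 27.6 and 26.6 at 24 h. Its log2 change at 24 h against 0 h was -1.09 in H47_Ctrl (SE 0.25, adjusted p = 0.00329), -1.03 in H47_KO (SE 0.24, adjusted p = 0.00278) and -1.35 in VP64_A (SE 0.22, adjusted p = 1.83e-05). In VP64_Ctrl the change was -0.64 (SE 0.23, adjusted p = 0.0609), and it passed without replicate 1 (adjusted p = 0.0457) or 3 (adjusted p = 0.0288) at 0 h. Without replicate 2 at 0 h, the highest of them, it was -0.36 (adjusted p = 0.368). The H47_Ctrl call was lost without replicate 2 at 0 h, the highest library (adjusted p = 0.0577), and the H47_KO call with limma on TPM (adjusted p = 0.0870 with a pseudocount of 1). In VP64_A COL11A1 was also lower at 24 h than at 6 h (log2 -0.80, SE 0.22, adjusted p = 0.0119), a call lost without any of 4 of the 6 libraries.

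COL5A1 at 24 h against 0 h changed by log2 0.75 in H47_Ctrl (SE 0.25, adjusted p = 0.0459), 0.80 in H47_KO (SE 0.25, adjusted p = 0.0221) and 0.80 in VP64_Ctrl (SE 0.19, adjusted p = 0.00330). In VP64_A the change was 0.31 at 24 h (SE 0.19, adjusted p = 0.318) and 0.61 at 6 h (SE 0.19, adjusted p = 0.0196), from 136, 155 and 119 CPM to 222, 215 and 191. In VP64_Ctrl it had risen by 6 h already (log2 0.99, SE 0.20, adjusted p = 2.62e-04). The H47_Ctrl call was lost without any 1 of its 6 libraries, with adjusted p between 0.0604 and 0.229. The H47_KO call was lost without replicate 3 at 0 h (adjusted p = 0.112) or replicate 1 at 24 h (log2 0.36, adjusted p = 0.323), and the VP64_A call at 6 h without any of 4 of its 6 libraries (adjusted p up to 0.103). These rises were relative to the trimmed mean of the library: on library totals the median of all genes moved by -0.79 at 6 h against 0 h in VP64_Ctrl, and COL5A1 there was 0.30 (adjusted p = 0.249). The VP64_Ctrl change at 24 h was likewise 0.40 on library totals (adjusted p = 0.183) and 0.40 with limma on log2(TPM + 1) (adjusted p = 0.306). The H47_Ctrl change at 24 h was 0.52 on library totals (adjusted p = 0.111). The VP64_A call at 6 h was lost on library totals (0.38, adjusted p = 0.244) and with abundance-dependent offsets (0.49, adjusted p = 0.0703). It was also lost with limma on log2(TPM + 1) (0.34, adjusted p = 0.439).

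COL1A1 rose in VP64_Ctrl, from 1136, 1255 and 445 CPM at 0 h to 3331, 3270.4 and 1590.2 at 24 h (log2 1.53, SE 0.35, adjusted p = 0.00171). It was called there at 6 h as well (log2 1.37, SE 0.34, adjusted p = 0.00306), though on an abundance-dependent scaling the 6 h change was 0.52 (adjusted p = 0.160). In the other 3 groups edgeR with TMM scaling, the filter and all 24 libraries of the arm called none of its changes with time. H47_Ctrl had 4054, 4438 and 3170.2 CPM at 0 h and 6244, 7923 and 5198 at 24 h, which did not overlap (log2 0.73, SE 0.50, adjusted p = 0.460). With only the compared libraries in the fit, edgeR called that H47_Ctrl change (log2 0.71, adjusted p = 0.00291). With TMM scaling, the filter and all 24 libraries of the arm, edgeR called COL1A2 in none of the 12 time comparisons. Of these 1 had an unadjusted p under 0.05: 24 h against 0 h in VP64_Ctrl (log2 0.76, SE 0.30, adjusted p = 0.0853), which DESeq2 (adjusted p = 0.0235) and limma called. Other scalings called COL1A2 elsewhere and could turn its direction. At 6 h against 0 h it was -0.40 in VP64_A with TMM (adjusted p = 0.401) and -0.65 on library totals (adjusted p = 0.00122). In VP64_Ctrl the same change was 0.57 with TMM (adjusted p = 0.154) and -0.46 with abundance-dependent offsets (adjusted p = 0.00496).

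COL3A1 had its lowest mean at 12 h in all 4 groups of cells, though no change with time to or from 12 h was tested. Mean CPM was also lowest at 12 h for COL11A1 in H47_Ctrl and VP64_Ctrl and for COL1A2 in H47_Ctrl and H47_KO. In H47_Ctrl COL3A1 had 1094, 1365 and 837 CPM at 0 h, 558, 719.8 and 709 at 6 h, 300.5, 543 and 549 at 12 h and 1487, 1613 and 1439 at 24 h. The rise from 6 h to 24 h was called (log2 1.19, SE 0.32, adjusted p = 0.00856) and was lost without replicate 1 at 6 h (adjusted p = 0.0535). In VP64_A it fell from 792, 1169.6 and 796 CPM at 0 h to 477, 494 and 482 at 24 h (log2 -0.92, SE 0.30, adjusted p = 0.0393). That call was lost without VP64_A replicate 2 at 0 h or any 1 of the 3 libraries at 24 h, with adjusted p up to 0.185, and also under DESeq2 (adjusted p = 0.0738).

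COL5A2 was higher at 6 h than at 0 h in H47_KO (log2 0.75, SE 0.27, adjusted p = 0.0399) and in VP64_Ctrl (log2 1.24, SE 0.30, adjusted p = 0.00204), and in H47_KO it was lower at 24 h than at 6 h (log2 -0.94, SE 0.27, adjusted p = 0.0101). In H47_KO its values were 381, 376 and 301 CPM at 0 h, 694, 755 and 334 at 6 h and 490.1, 170.2 and 263 at 24 h, which overlap between times. In H47_KO the 6 h call was lost without any of 5 of its 6 libraries (adjusted p up to 0.193), and the later one without replicate 2 at 6 h (adjusted p = 0.0749) or at 24 h (log2 -0.66, adjusted p = 0.0810). On library totals the 6 h change in H47_KO was 0.22 (adjusted p = 0.388) and the later one -0.40 (adjusted p = 0.109), where the median of all genes moved by -0.61 and 0.66. The VP64_Ctrl change at 6 h was 0.57 on library totals (adjusted p = 0.0459), and its call was lost with limma on log2(TPM + 1) (log2 0.59, adjusted p = 0.0828).

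Ratios of TPM within a library describe how unequally partner chains moved. COL1A1 to COL1A2 lay between 0.159 and 0.557 with a median of 0.299 over 48 libraries. In VP64_A the mean ratio was 0.259 ± 0.029 at 0 h and 0.478 ± 0.069 at 6 h, and in VP64_Ctrl it was 0.202 ± 0.021 and 0.335 ± 0.129 (SD, n = 3). The mean was lowest at 0 h and above it at each later time in all 4 groups of cells. COL5A1 to COL5A2 ranged from 0.111 to 0.618, with a median of 0.367 in VP64_A and 0.192 in VP64_Ctrl. COL3A1 to COL1A1 was lowest at 12 h in each group, with means from 0.078 in VP64_Ctrl to 0.102 in H47_Ctrl, against 0.266 to 0.358 at 0 h. No test was made of these ratios.

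**Figure D4:**
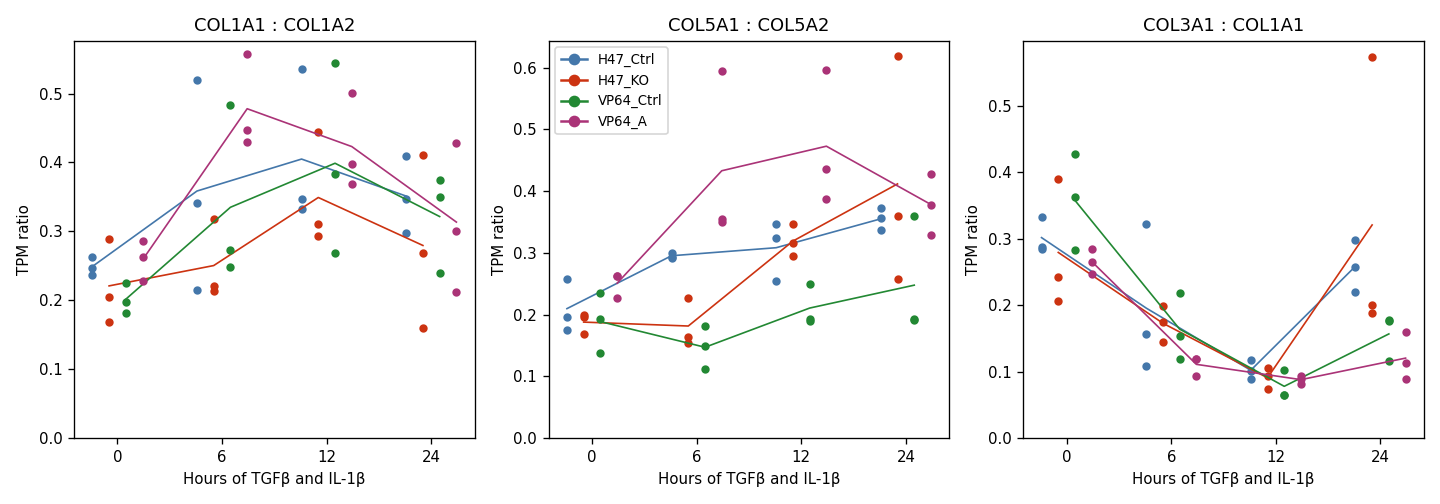
Ratio of TPM within each library (y axis, from 0) for COL1A1 to COL1A2, COL5A1 to COL5A2 and COL3A1 to COL1A1 at 0, 6, 12 and 24 h (x axis, not to scale); points are libraries and lines join means of 3. The COL3A1 to COL1A1 means fall to between 0.078 and 0.102 at 12 h.

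The genes that fold, cut, crosslink, coat and degrade collagen were taken as lists, to be read beside the 18.4% of all genes called between VP64_A and VP64_Ctrl averaged over times. Between VP64_A and VP64_Ctrl averaged over times, 4 of the 5 lysyl oxidase genes were higher and none lower, with a list median of log2 0.82 beside -0.0037 for all genes tested. They were LOXL3 (log2 1.49, SE 0.10, adjusted p = 8.00e-14), LOXL4 (log2 0.99, SE 0.09, adjusted p = 9.45e-11), LOXL1 (0.82) and LOX (0.61). Of 15 genes for chain folding and modification 4 were higher and none lower (median 0.15), led by P4HA1, a prolyl hydroxylase subunit (log2 1.40, SE 0.11, adjusted p = 4.22e-12), and PLOD1, a lysyl hydroxylase (log2 0.55, SE 0.10, adjusted p = 5.08e-05). Of 4 propeptide cleavage genes ADAMTS2, the procollagen N-proteinase, was lower (log2 -0.77, SE 0.14, adjusted p = 1.57e-04).

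Of 8 tested genes for proteins that coat or bind fibrils 1 was higher and 5 were lower, with a median of -0.39: SPARC, a collagen-binding glycoprotein, was higher (log2 1.19, SE 0.14, adjusted p = 8.45e-08), and biglycan (BGN) was lower (log2 -0.73, SE 0.09, adjusted p = 1.32e-07). Of 10 genes for collagen breakdown and uptake 2 were higher and 5 lower, with a median of -0.41. The collagenase MMP1 was at log2 -2.23 (SE 0.15, adjusted p = 1.85e-13) and the protease cathepsin K (CTSK) at -1.13 (SE 0.08, adjusted p = 7.87e-13). Among those lower were also the protease inhibitors TIMP1 and TIMP3, which act against collagenases. LOX, LOXL1, TIMP1, TIMP3 and, with time, COL27A1, P4HA2 and BMP1 were chosen after their values were seen.

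In H47_KO averaged over times, where 3.07% of all genes were called, so were 2 of 10 tested fibril-associated genes and 2 of 10 breakdown and uptake genes. Decorin (DCN), a small proteoglycan that binds fibrils, was lower (log2 -1.30, SE 0.12, adjusted p = 1.01e-08) and COL12A1, a fibril-associated collagen, higher (log2 0.36, SE 0.09, adjusted p = 0.0126). CTSK (log2 0.55, SE 0.09, adjusted p = 1.17e-04) and MMP1 (log2 0.84, SE 0.16, adjusted p = 0.00127) were higher. Of the 4 further fibrillar collagen genes, COL2A1, COL11A2, COL24A1 and COL27A1, the 1 with enough counts was COL27A1, which was not called between groups averaged over times in either arm.

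**Figure D5:**
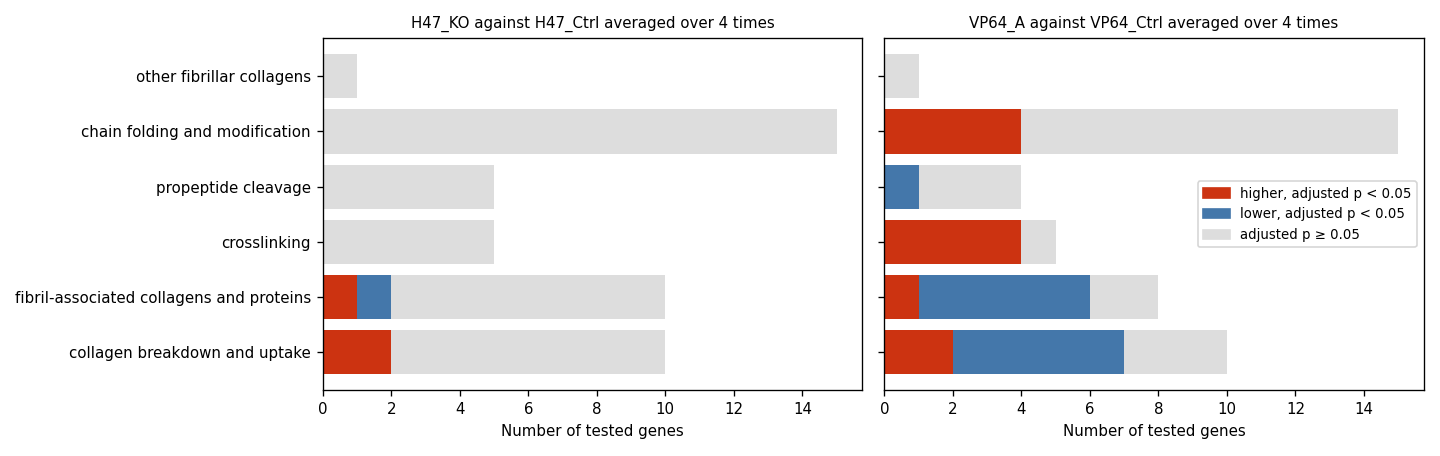
Number of tested genes (x axis) in 6 lists of collagen-related genes that were higher, lower or not called at adjusted p under 0.05, for H47_KO against H47_Ctrl (left) and VP64_A against VP64_Ctrl (right), each averaged over 4 times. Of 5 crosslinking genes 4 are higher in VP64_A, and in H47_KO the 4 called genes are in the fibril-associated and breakdown lists.

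With time, COL27A1 was called higher at 6 h than at 0 h in all 4 groups of cells, by log2 1.73 in VP64_A to 2.60 in VP64_Ctrl. The prolyl hydroxylase gene P4HA2 rose by 24 h in all 4 groups, by log2 1.41 in H47_KO to 2.02 in VP64_A, and BMP1, the procollagen C-proteinase, by log2 0.75 in H47_Ctrl to 0.91 in H47_KO. MMP1 rose by 24 h from log2 2.29 in H47_KO to 4.80 in VP64_A. At 24 h against 0 h, 6 or 7 of the 10 breakdown and uptake genes were higher in each group of cells and 1 was lower in each group but VP64_A, beside 10.3% to 16% of all genes called in either direction, with list medians from 0.73 to 0.93.

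The genes whose condition means most resembled each collagen were chosen by the smaller of the Pearson correlations in the 2 arms, each over 8 condition means of log2 CPM and among 10685 genes, as a description. For COL11A1 these were BAIAP2 (r = 0.93 in CRISPRko and 0.95 in CRISPRa), CTNNAL1 and PTGES. For COL5A1 they were COL6A2 (0.89 and 0.93), a chain of the microfibrillar collagen VI, SLCO2A1 and UBE2J1. For COL1A1 they were TRABD, PJA2 and TGFBI (0.85 and 0.97), for COL1A2 MIF, ENO1 and ADAM10, for COL3A1 PPME1, PSAT1 and MTHFD1, and for COL5A2 HNRNPA2B1, TCP1 and HNRNPK. Among the collagens themselves COL1A1 and COL5A1 had r of 0.77 and 0.95, and COL5A1 and COL11A1 -0.67 and 0.70. The 8 means of an arm share their libraries and scaling.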

How the data were processed

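Before deposit, reads were cleaned by the authors (Trim Galore, then SortMeRNA for ribosomal RNA), placed on GRCh38 by STAR and summed per gene by Salmon. The authors deposited estimated counts, not normalized between libraries, and TPM, which the authors' Salmon run scaled for length and depth; 6.38% of the estimated counts were not whole and were rounded. Groups came from the labels, and 0 columns were unmatched. Each arm of 24 libraries was fitted with edgeR 4.0.16 (TMM, filterByExpr with minimum count 10, two-sided quasi-likelihood F test, 8 groups), leaving 10962 and 10980 genes, with Benjamini-Hochberg adjustment over all of them. CPM are on TMM-scaled library sizes, arms separately. TPM were used between genes. The text names the 7 collagens, GLIS3, the 2 called genes of smallest adjusted p in each list, and 3 genes of most similar pattern per collagen. Members and lists were chosen with earlier results of these data known. The fits were tested on simulated data. Alternatives used DESeq2 1.42.0 and limma 3.58.1. No protein sequences were used here. Between any 2 replicates the counts differed by more than sampling noise.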

Additional observations from a re-analysis of the deposited data

Results flagged for a closer look

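COL3A1 differed between 0 h and 24 h in opposite directions in groups of cells from the 2 arms. Every 24 h library was above every 0 h library in H47_Ctrl, a difference that was not called (log2 0.46, adjusted p = 0.453, edgeR). With only the compared libraries in the fit, edgeR called that difference (log2 0.44, adjusted p = 0.0498). In VP64_A every 24 h library was below every 0 h library (log2 -0.92, adjusted p = 0.0393), a call lost under DESeq2 and without any of 4 of the 6 libraries. The arms were normalized and fitted separately, and the difference between these changes was not tested.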

How the results depend on the processing

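Of 156 differences tested for the 6 collagens, 35 were called. Of these 21 were called under every alternative that kept all libraries and 25 with each library left out, and 0 changed sign. Among all 156, 32 changed sign under some alternative and 43 with some library left out, none of them among the 35. Library totals moved the median of all genes by up to 0.79 (log2) and TPM with limma by up to 0.81. The cause of the changes below was not tested.

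The number of calls in H47_KO against H47_Ctrl averaged over times went from 1 to 2 on library totals, with no filter on low counts and with limma on log2(TPM + 1), and to 4 with abundance-dependent offsets. At single times it went from 0 to 1 with no filter. Changes with time in H47_Ctrl went from 3 calls to 5 on library totals, 6 with no filter and 7 with only the libraries compared. Those in VP64_Ctrl went from 5 to 8 on library totals, and those in VP64_A from 4 to 7 with the offsets. The interaction in the CRISPRa arm went from 0 to 2 with no filter.

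With 1 library left out, calls ranged from 0 to 2 for H47_KO at single times, 0 to 3 averaged over times, 12 to 15 for VP64_A at single times (12 with all libraries) and 6 to 6 averaged. For changes with time they ranged from 1 to 3 in H47_Ctrl, 2 to 5 in H47_KO, 2 to 4 in VP64_A and 5 to 8 in VP64_Ctrl. For the interactions they ranged from 0 to 1 in the CRISPRa arm and 0 to 0 in the CRISPRko arm. COL11A1 in H47_KO averaged over times ranged from -0.14 to 0.0037 around -0.06.

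Libraries were not treated as paired by replicate number. Same-numbered libraries were compared between the groups of an arm at the same time. The correlation of their deviations from group means, over all genes, was over 0.1 in 2 of 12 pairs in each arm (-0.053 to 0.121 in CRISPRko and -0.023 to 0.140 in CRISPRa). Sharing of replicate numbers across times was not tested, nor was it for the collagens alone. A replicate block was counted for 68 differences: those called, without overlap, averaged over times, or interactions of at least 2 SE. The text also gives some differences outside this set. Of the 68, 63 kept direction and call with the block, 5 gained a call and 0 lost one. Among the 5, COL1A1 between VP64_A and VP64_Ctrl at 6 h became 1.11 (adjusted p = 0.0434) and COL3A1 at 12 h 1.03 (adjusted p = 0.0306).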
